A study of Mus musculus with 6 samples.

Results

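AMP-activated protein kinase (AMPK) was followed through the 7 genes of its subunits and the genes of the kinases that switch it on, in the quadriceps of exercised and sedentary AR97Q transgenic mice. The 10 genes comprise the catalytic subunits Prkaa1 and Prkaa2, the scaffold subunits Prkab1 and Prkab2, the regulatory subunits Prkag1, Prkag2 and Prkag3, and the upstream genes Stk11, Cab39 and Camkk2. They were chosen by name, and every non-control probe whose transcript identifier belongs to 1 of them was taken. All 10 were measured, by 17 probes, among 25005 genes and transcripts that passed the filter on dim probes. Each of the 17 probes was well above background on all 6 arrays, so no member was lost to that filter.

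AMPK is a sensor of cellular energy. Each complex joins an α subunit, which holds the kinase domain, a β subunit, which ties the complex together and binds glycogen, and a γ subunit, which binds AMP, ADP and ATP. When a muscle contracts and its ATP is used up, AMP and ADP bind γ, and the α subunit is phosphorylated by LKB1, the product of Stk11, or by CaMKK2, which responds to calcium. LKB1 works in a complex with a STRAD pseudokinase and with MO25, of which Cab39 encodes the α form. Active AMPK slows protein and lipid synthesis and favours glucose uptake, fatty acid oxidation and autophagy. Its activity is set by phosphorylation and by nucleotides, neither of which an RNA array measures.

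All 6 mice were AR97Q males, a transgenic model of spinal and bulbar muscular atrophy on a C57BL/6J background. Quadriceps RNA was taken at 9 weeks of age from 3 mice of the exercise group and 3 of the sedentary group, with 1 single-colour array for each mouse. The exercise group had run in a forced wheel at 5 m/min for 60 min a day, 5 days a week, for 4 weeks from 5 weeks of age, and the sedentary group had not. No arrays of mice without the transgene enter the comparison, so both groups share it. Values are log2 spot intensities relative to the 75th percentile of the same array. They show how a gene differed between mice, and levels of different genes cannot be set against each other because each has its own probe.

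The arrays differed in overall brightness. Sedentary arrays had a 75th percentile of signal of 310 to 384 and exercise arrays one of 251 to 257, a difference that dividing by this percentile removes. All arrays were on 1 slide. The 3 exercise arrays and Sedentary 1 were on 1 strip of it, and Sedentary 2 and Sedentary 3 on the other. Among markers of the tissue, 6 of 7 skeletal muscle markers and 7 of 7 fast-twitch markers were called higher with exercise. The share of all genes called higher was 11.5%, and that called lower 6.15%. Both lists hold Myh4, so their counts are not independent and the first is not neutral to fibre type. The skeletal muscle marker not called was Ttn (0.28, adjusted p = 0.320 in limma). The array means of each list did not overlap between the groups. For the fast-twitch markers the array means were 8.25 to 8.49 in the exercise group and 6.75 to 7.66 in the sedentary group, where Sedentary 1 had the highest. Of 7 slow-twitch markers 2 were called lower and none higher, and their array means overlapped (2.40 to 3.77 against 3.54 to 3.95). All 6 Schwann cell and nerve markers were lower, 1 of them called, with array means of 0.964 to 1.21 against 1.36 to 1.62. The array means of the adipocyte, macrophage, endothelial, fibroblast, smooth muscle and red blood cell markers overlapped between the groups. Of these lists, 1 adipocyte marker was called higher, 1 smooth muscle marker higher (with its other probes of opposite sign) and 1 smooth muscle marker lower. The other 5 adipocyte markers were lower without being called, and the median of that list was -0.75. Every marker tested was well above background on all 6 arrays, and the part of these markers in the results on AMPK was not tested. In whole muscle, fewer cells of a type and less RNA per cell cannot be told apart.

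Among the 10 genes, those of α2 and β2 were called higher with exercise and the others did not pass the test. Neither call held under every scaling, or when any single array other than Sedentary 1 was left out, as given below. Without scaling their differences were 0.30 and 0.05. Prkaa2 and Prkab2, which encode these subunits, were higher in the exercise group by 1.71-fold and 1.44-fold, and both passed the threshold of adjusted p = 0.05 in limma. Thus 2 of the 10 genes were called higher, against 11.5% of all genes tested, and 0 were called lower, against 6.15%. None reached the criterion of a log2 change of at least 1 besides the adjusted p, which 2.78% of all genes met. The median change of the 10 genes was 0.18 on the log2 scale, against 0.03 for all genes, with 7 positive and 3 negative. The groups did not overlap in 6 of the 10 genes, against 43.2% of all genes. Of these, 5 were higher in every exercise array (Prkaa2, Prkab2, Prkag1, Prkag3 and Stk11), against 25.0% of all genes, and Prkaa1 was lower in every exercise array, against 18.2%. The same 6 had an unadjusted p under 0.05, against 37.0% of all genes, and the share of all genes for the direction of Prkaa1 was 15.4%.

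**Figure D1:**
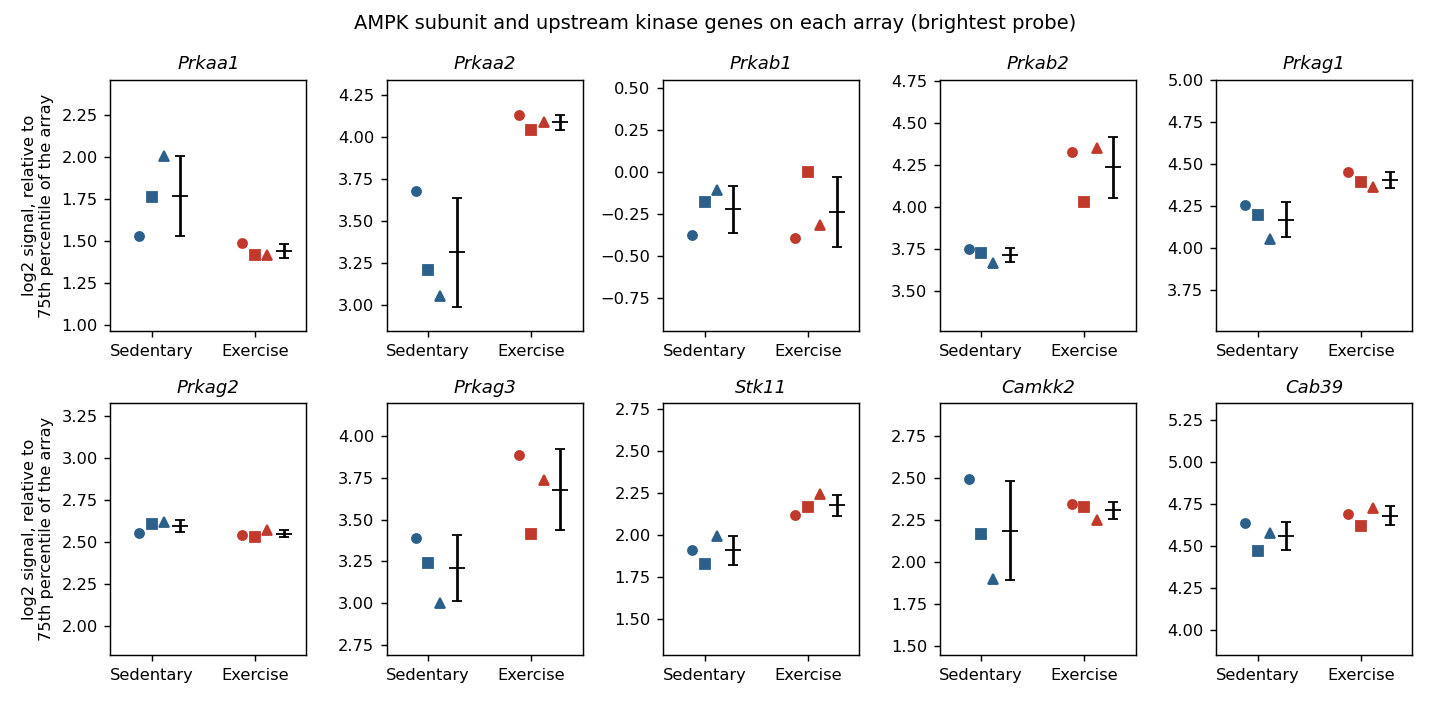
Log2 signal relative to the 75th percentile of the array (vertical axis, the same span of 1.5 in each panel) of the 10 genes in the 3 sedentary (blue) and 3 exercise (red) mice, with circles, squares and triangles for replicates 1, 2 and 3 and black bars for mean ± SD. Prkaa2 lies between 4.04 and 4.13 in the exercise group and between 3.05 and 3.68 in the sedentary group, and Prkaa1 runs the other way.

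The promoters of 4 subunit genes are shown because these genes carried the largest differences in either direction: Prkaa2 and Prkab2, which were called higher, Prkag3, the γ subunit gene with the largest difference, and Prkaa1, the one lower gene whose groups did not overlap. Each line gives the 250 bases before the gene start, 5′ to 3′ on the strand of the gene, from RefSeq on GRCm38.p6. Capitals mark GC boxes (GGGCGG on either strand) in the first 3 genes and an E-box of the MyoD kind (CAGCTG) in Prkag3.
Prkaa2, chr4:105109899-105110148, minus strand: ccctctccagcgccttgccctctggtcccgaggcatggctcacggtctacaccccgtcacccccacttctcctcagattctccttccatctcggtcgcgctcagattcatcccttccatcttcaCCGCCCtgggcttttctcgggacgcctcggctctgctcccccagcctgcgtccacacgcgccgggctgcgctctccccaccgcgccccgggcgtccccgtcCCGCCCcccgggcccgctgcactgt
Prkab2, chr3:97657962-97658211, plus strand: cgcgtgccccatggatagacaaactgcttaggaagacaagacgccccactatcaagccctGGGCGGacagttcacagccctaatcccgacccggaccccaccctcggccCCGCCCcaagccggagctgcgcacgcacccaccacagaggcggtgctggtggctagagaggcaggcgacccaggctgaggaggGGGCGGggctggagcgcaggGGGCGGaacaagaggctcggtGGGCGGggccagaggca
Prkaa1, chr15:5143611-5143860, plus strand: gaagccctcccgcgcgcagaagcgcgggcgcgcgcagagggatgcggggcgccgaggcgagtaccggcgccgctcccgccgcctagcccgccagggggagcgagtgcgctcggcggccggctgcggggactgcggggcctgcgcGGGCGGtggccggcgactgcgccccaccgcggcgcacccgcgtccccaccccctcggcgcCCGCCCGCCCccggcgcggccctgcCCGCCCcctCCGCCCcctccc
Prkag3, chr1:74748956-74749205, minus strand: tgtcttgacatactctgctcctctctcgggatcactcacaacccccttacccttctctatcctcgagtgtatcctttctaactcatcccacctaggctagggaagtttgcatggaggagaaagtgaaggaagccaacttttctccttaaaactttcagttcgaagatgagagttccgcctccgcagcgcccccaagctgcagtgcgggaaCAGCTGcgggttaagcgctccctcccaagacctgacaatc

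The α2, β2 and α1 promoters were rich in G and C and held GC boxes, 2 in Prkaa2, 5 in Prkab2 and 5 in Prkaa1. With the 50 bases after the start included, G and C made up 72.7% of the Prkaa2 window, 68% of Prkab2 and 82% of Prkaa1, against a median of 52.7% over 32851 windows. Prkag3 differed from them. Its window was 54% G and C, had no GC box, and had 1 E-box that begins at position -40 from the start. Over all 12 windows of the 10 genes, a GC box was found in 9 windows of 8 genes, against 35.7% of all windows. A CCAAT box (CCAAT) was found in 5 windows of 4 genes, against 37.4% of all windows. CAGCTG was found for Prkag3 alone among the 10 genes and is in 16.3% of all windows. No window of the 10 held CACGTG, the cAMP response element TGACGTCA, TCAAGGTCA or TATAAA, which are in 7.15%, 1.79%, 0.423% and 13.6% of all windows. All letters were sought on both strands, and a match is not evidence that a factor binds there. GC boxes stood before the called genes Prkaa2 and Prkab2 and also before genes not called, such as Prkaa1, Prkag2, Camkk2 and Cab39. A link between GC boxes and the direction of change was not tested.

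The catalytic subunit genes differed in sign, and Prkaa2 alone passed the test. Prkaa2 encodes α2, the main catalytic form of skeletal muscle. Its values were 4.13, 4.04 and 4.09 in the exercise mice and 3.68, 3.21 and 3.05 in the sedentary mice. The exercise mice were close together and above all 3 sedentary mice, which were spread over a wider range with Sedentary 1 nearest to the exercise group. The means were 4.09 ± 0.05 and 3.31 ± 0.32 (SD, n = 3 each), a difference of 0.78 (SE 0.17, 95% interval 0.37 to 1.19) with adjusted p = 0.0327 in limma. The exact permutation p was 0.1, two-sided, which is the smallest that 3 mice against 3 allow. A second, dimmer probe designed on the same transcript gave 0.64 (SE 0.17), again with no overlap, and adjusted p = 0.0499 in limma when all probes were tested singly.

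Prkaa1 encodes α1, the catalytic form found in most cell types. Its values were 1.49, 1.42 and 1.42 in the exercise mice and 1.53, 1.76 and 2.01 in the sedentary mice. Every exercise mouse was lower than every sedentary mouse, but the gap to Sedentary 1 was only 0.045. The difference was -0.33 (SE 0.13, 95% interval -0.65 to -0.0019), with unadjusted p = 0.0490 and adjusted p = 0.134 in limma, so Prkaa1 was not called. It has 1 probe, and no second one could be set beside it. The difference was -0.44 and was called by limma without Sedentary 1, and -0.21 with adjusted p = 0.277 in limma without Sedentary 3. Leaving out any other array gave no call.

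The ratio of the α genes on the same array is left as it is by any scaling that divides an array by 1 factor. The log2 ratio of the Prkaa2 to the Prkaa1 probe was 2.64, 2.62 and 2.68 in the exercise mice and 2.14, 1.45 and 1.04 in the sedentary mice. Its size reflects the 2 probes, and only its change between mice can be read. The exercise mice differed by little among themselves and all lay above the sedentary mice. The exercise mean was higher by 1.10 (95% interval 0.45 to 1.76), a 2.15-fold change of the ratio, and by 0.97 with the other Prkaa2 probe. The exact permutation p was 0.1, or 0.175 after Benjamini-Hochberg adjustment over the 7 ratios examined. Against Sedentary 1, the sedentary array on the same strip of the slide, the difference was 0.50.

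Of the β genes, only Prkab2 passed the test. Prkab2 encodes β2, the β form that predominates in skeletal muscle. It read 4.33, 4.03 and 4.35 in the exercise mice and 3.75, 3.72 and 3.66 in the sedentary mice. Here the sedentary mice were the tight group, and the lowest exercise mouse was 0.28 above the highest of them. The difference was 0.52 (SE 0.11, 95% interval 0.25 to 0.80), with adjusted p = 0.0324 in limma and an exact permutation p of 0.1. Against Sedentary 1 alone it was 0.49, nearly the full difference. Prkab1, which encodes β1, read -0.40, 0.00 and -0.32 against -0.38, -0.18 and -0.11. These values overlapped throughout, and the difference of -0.02 had a 95% interval of -0.35 to 0.32 and adjusted p = 0.940 in limma. A second Prkab1 probe gave 0.03. The ratio of Prkab2 to Prkab1 within an array was higher by 0.54 (95% interval 0.03 to 1.05), but the groups overlapped because of Exercise 2, and the exact permutation p was 0.2.

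None of the γ genes was called with its brightest probe, and among them only Prkag2 had groups that overlapped. Prkag3 encodes γ3, a form largely restricted to skeletal muscle, above all to fast glycolytic fibres. Its brightest probe read 3.88, 3.41 and 3.74 in the exercise mice and 3.39, 3.24 and 3.00 in the sedentary mice. The exercise mice were higher without overlap, but by only 0.02 at the closest point, between Exercise 2 and Sedentary 1. The difference was 0.47 (SE 0.16, 95% interval 0.07 to 0.86), with adjusted p = 0.0922 in limma, so it was not called. The other 2 probes of Prkag3, designed on the same transcript, were higher in every exercise mouse as well. The brighter of them gave 0.51 (adjusted p = 0.0571 over all probes in limma). The dimmest gave 1.21 (SE 0.20, adjusted p = 0.0246 over all probes in limma), with signals of 92.8, 80.7 and 86.4 against 62.6, 45.6 and 48.9 before scaling. The 3 probes had 1 direction, the difference between their sizes was not tested, and whether Prkag3 was called rested on the probe taken.

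Prkag1 encodes γ1, the form found in most tissues and most muscle complexes. It read 4.45, 4.39 and 4.36 in the exercise mice and 4.26, 4.20 and 4.05 in the sedentary mice. The groups did not overlap and the difference was small, 0.24 (SE 0.09, 95% interval 0.02 to 0.45), with adjusted p = 0.116 in limma. Prkag2, which encodes γ2, the form linked to a glycogen storage heart disease, was the least variable of the 10 genes. It read 2.54, 2.53 and 2.57 against 2.55, 2.61 and 2.62. The groups overlapped, and the difference of -0.05 had a 95% interval of -0.23 to 0.14. Within arrays, Prkag2 relative to Prkag1 differed by -0.28 (95% interval -0.52 to -0.04), with no overlap and an exact permutation p of 0.1. Prkag3 relative to Prkag2 was higher by 0.51 (95% interval 0.10 to 0.92), without overlap for each of its 3 probes, over which the difference ranged from 0.51 to 1.25. Relative to Prkag1, Prkag3 was higher by 0.23 with its brightest probe, where the groups overlapped (exact permutation p = 0.3), and 0.97 with its dimmest.

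**Figure D2:**
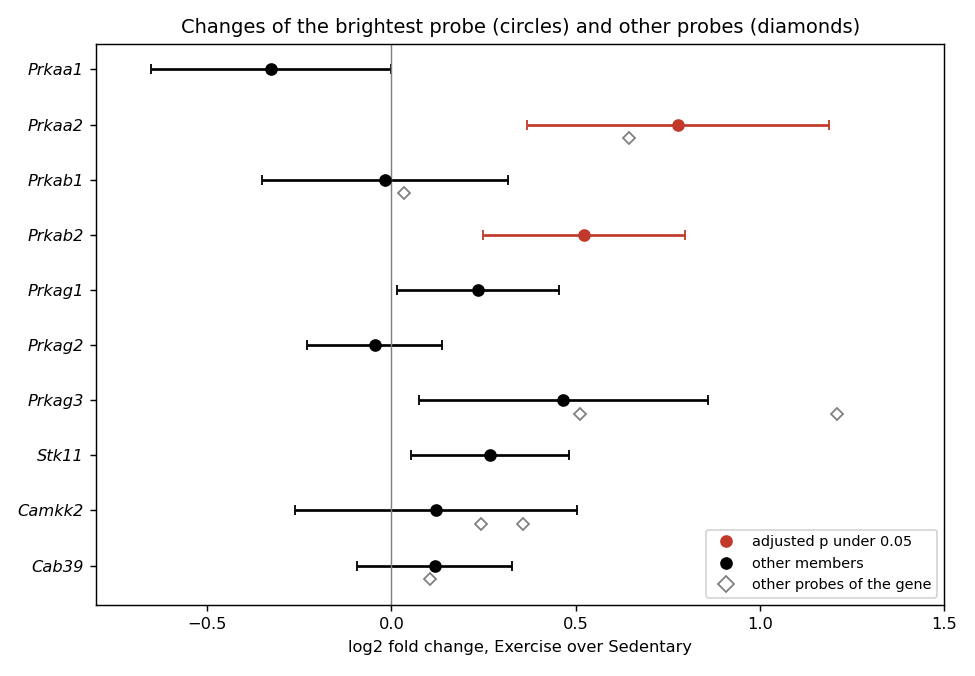
Log2 fold change of exercise over sedentary (horizontal axis) for the brightest probe of each gene, with 95% interval (circles, red where the adjusted p was under 0.05), and for its other probes (diamonds, without interval). Prkaa2 and Prkab2 are the red circles at 0.78 and 0.52, and the dimmest Prkag3 probe stands apart at 1.21.

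Among the upstream genes, Stk11 was higher in every exercise mouse without being called. Stk11 encodes LKB1, the main AMPK kinase of contracting muscle. It read 2.12, 2.16 and 2.24 in the exercise mice and 1.91, 1.82 and 1.99 in the sedentary mice. The groups were separate by 0.12, and the difference was 0.27 (SE 0.09, 95% interval 0.05 to 0.48), with adjusted p = 0.0820 in limma. It was also 0.27 against Sedentary 1. Cab39 encodes MO25α, the scaffold that keeps LKB1 active. It read 4.69, 4.62 and 4.73 against 4.64, 4.47 and 4.58, values that overlapped, and the difference was 0.12 (95% interval -0.09 to 0.33), or 0.11 with a probe for another transcript. Within arrays Cab39 relative to Stk11 differed by -0.15 with no overlap (exact permutation p = 0.1), although the limma interval of this ratio, -0.36 to 0.06, includes no change.

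Camkk2 encodes CaMKK2, which links calcium to AMPK. Its brightest probe read 2.35, 2.33 and 2.25 in the exercise mice and 2.49, 2.17 and 1.90 in the sedentary mice. The sedentary mice spanned the whole exercise group from above and below, so the groups overlapped. The difference was 0.12 (95% interval -0.26 to 0.50, adjusted p = 0.610 in limma). Its other probes, both for a different transcript, were dim, with signals between 27.7 and 49.0, and gave 0.24 and 0.36 with overlap. The ratio of Camkk2 to Stk11 differed by -0.15 (95% interval -0.59 to 0.30), and its sign turned with the probe.

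**Figure D3:**
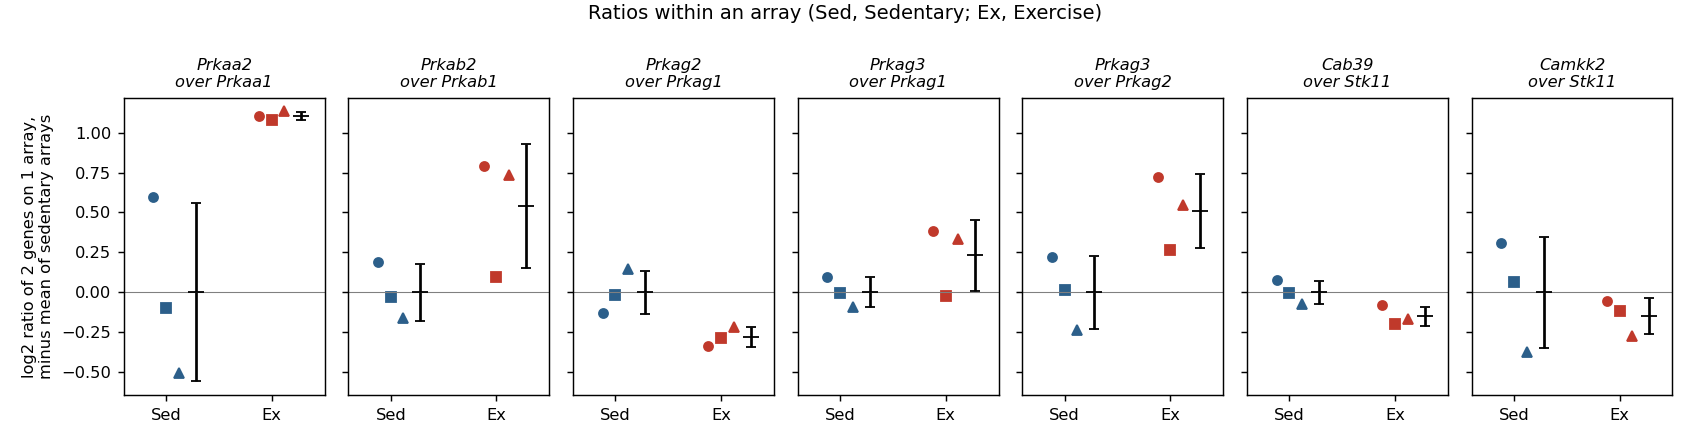
Log2 ratio of a pair of genes on the same array, minus the mean of the sedentary arrays (vertical axis), for 7 pairs in the sedentary (Sed, blue) and exercise (Ex, red) mice, with circles, squares and triangles for replicates 1, 2 and 3 and bars for mean ± SD. The groups are separate in 4 of the 7 ratios, some of which share a gene. The share for other gene pairs was not computed, and 43.2% of single genes did not overlap. The largest change is that of Prkaa2 over Prkaa1, at 1.10.

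The sedentary mice were not alike in these genes. In 5 of the 6 genes whose groups did not overlap, Sedentary 1 was the sedentary mouse nearest to the exercise mean, as it was in 63.3% of the 10805 such genes on the arrays. Stk11 was the exception. Against Sedentary 1 alone, the exercise mean was higher by 0.41 for Prkaa2, 0.49 for Prkab2, 0.29 for Prkag3 and 0.15 for Prkag1, and lower by a difference of -0.09 for Prkaa1. Prkaa2, Prkag3 and Prkaa1 thus kept their direction within the strip at a smaller size, and the strip and the sedentary mice on it cannot be told apart. With the strip as a block, none of the 10 genes was called, and 3 of the 25005 were. Leaving out Exercise 1, 2 or 3 or Sedentary 2 or 3 ended the calls of Prkaa2 and Prkab2 (differences of 0.65 to 0.80 and 0.47 to 0.63), and at most 1 gene of all those tested was then called. Without Sedentary 1 both were called, at 0.96 and 0.54.

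Directions for single genes depended on how arrays were made comparable. Without scaling the median gene was lower by a difference of -0.45 in the exercise group, and after scaling to 8 spike-in probes by -0.52. Prkaa2 was higher in either case, by 0.30 and 0.23, and its signals before scaling were 4508, 4223 and 4279 against 3969, 3424 and 3183. Those groups did not overlap even so. Prkab2 was at 0.05 without scaling and at -0.03 with the spike-in probes, and its signals before scaling overlapped (5158, 4179 and 5115 against 4167, 4895 and 4865). Prkag1, Prkag3, Stk11, Camkk2 and Cab39 were negative under both, which move all genes alike, and Prkaa1 fell by 0.80 and 0.88 and was called lower. Relative to the median gene, the differences of Prkaa2, Prkab2 and Prkaa1 were 0.75, 0.50 and -0.35 under each of these scalings, and those of Prkag1, Prkag3, Stk11, Camkk2 and Cab39 were 0.21, 0.44, 0.24, 0.09 and 0.09. Over all genes, the calls were 2867 higher and 1539 lower with scaling to the 75th percentile, 617 and 11280 without scaling, and 1172 and 3201 in the deposited table of values. Quantile normalisation left Prkaa2 at 0.62 and Prkab2 at 0.36, neither called, with 0.0513 as the lowest adjusted p among the 10 genes in limma.

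**Figure D4:**
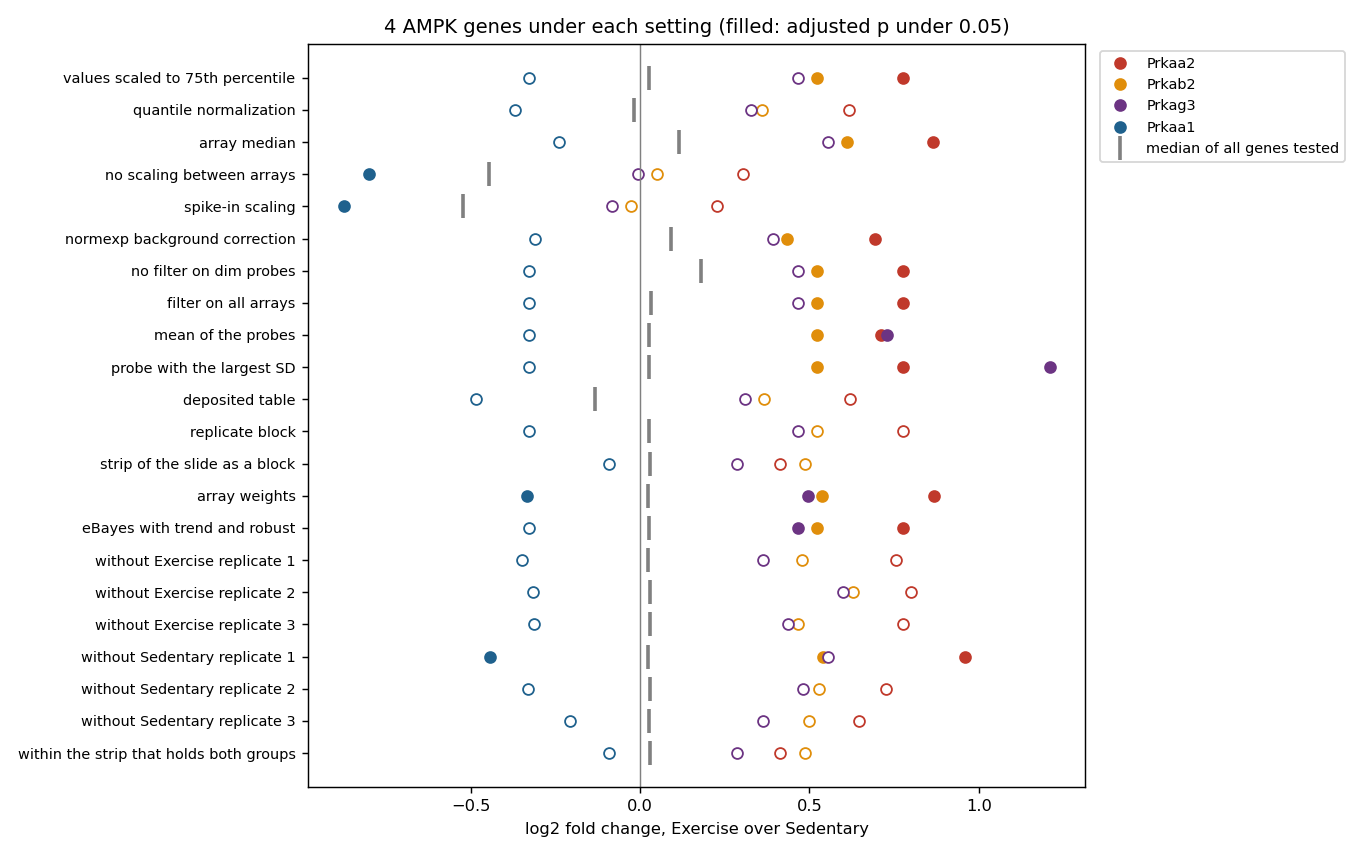
Log2 fold change of exercise over sedentary (horizontal axis) for Prkaa2, Prkab2, Prkag3 and Prkaa1 under each processing setting (rows), filled where the adjusted p was under 0.05, with the median of all genes tested as a grey bar. Prkaa2 lies right of 0 and Prkaa1 left of 0 in every row. Prkab2 and Prkag3 cross 0 with the spike-in probes, and Prkag3 also does so, barely, without scaling (-0.0064).

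Genes around AMPK were read from 4 lists. Of 12 regulators, all tested, 2 were called higher and 0 lower (17.6% of all genes were called in either direction), and the list's median was -0.12. The first was Stradb, a pseudokinase partner of LKB1. It read 3.26, 3.09 and 3.07 in the exercise mice and 2.70, 2.48 and 2.38 in the sedentary mice, a difference of 0.62 (SE 0.12) with adjusted p = 0.0255 in limma, while its other probe gave 0.16. The second was Ppm1a, a phosphatase that can remove the activating phosphate from AMPK. It read 1.17, 1.17 and 1.22 against 0.78, 0.64 and 0.77, a difference of 0.46 (SE 0.08, adjusted p = 0.0251 in limma). The count of 2 called among 12 is near the share over all genes, so these 2 are described as single genes only. The sestrins Sesn1, Sesn2 and Sesn3, stress-induced proteins that favour AMPK activity, were picked out after their values were seen. Their differences were -0.35, -0.23 and -0.47, each without overlap, as in the same direction for 18.2% of all genes, with adjusted p = 0.117, 0.139 and 0.0688 in limma, so that none was called.

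Of 12 kinases related to AMPK and switched on by LKB1, 11 were tested (Brsk2 was not). None was called in either direction, against 17.6% of all genes. Their median was -0.09, with 4 positive and 7 negative differences from -0.54 to 0.43. The lowest was that of Brsk1, whose other probe gave 0.60, so the range and signs rest in part on the probe taken. Of 20 substrates of AMPK, 10 differed upwards and 10 downwards with a median of 0.04. Of these, 2 were called higher, against 11.5% of all genes, and 0 lower, against 6.15%. Pfkfb3, a bifunctional enzyme whose product speeds glycolysis, had the largest difference of any gene in the 4 lists. It read 3.92, 4.76 and 5.23 in the exercise mice and 3.04, 2.75 and 2.99 in the sedentary mice. The exercise mice were all higher and widely spread, and the difference was 1.71 (SE 0.32, adjusted p = 0.0264 in limma), or 1.72 with a second probe. Srebf1, a regulator of lipid synthesis, was higher by 0.37 (SE 0.10, adjusted p = 0.0482 in limma).

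The 8 transcripts known to respond to AMPK in muscle were all higher in the exercise mean, against 13215 of the 25005 genes, with a median of 0.44. Of them, 3 were called higher, against 11.5% of all genes. This list was chosen with earlier results of these data known, so its counts are descriptions and not a test of AMPK activity. Slc2a4, which encodes the insulin- and contraction-responsive glucose transporter GLUT4, read 7.35, 7.41 and 7.53 against 6.80, 6.50 and 6.28. The groups were well apart, and the difference was 0.91 (SE 0.15, adjusted p = 0.0236 in limma). Cycs, which encodes cytochrome c, was higher by 0.59 (SE 0.11, adjusted p = 0.0258 in limma), and its other probe gave 0.77. Cs, which encodes citrate synthase of the Krebs cycle, was higher by 0.48 (SE 0.11, adjusted p = 0.0384 in limma), or 0.40 with its other probe. The fast-twitch and skeletal muscle markers, which share Myh4, were higher on the same arrays, as given above. Their part in these differences was not tested.

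**Figure D5:**
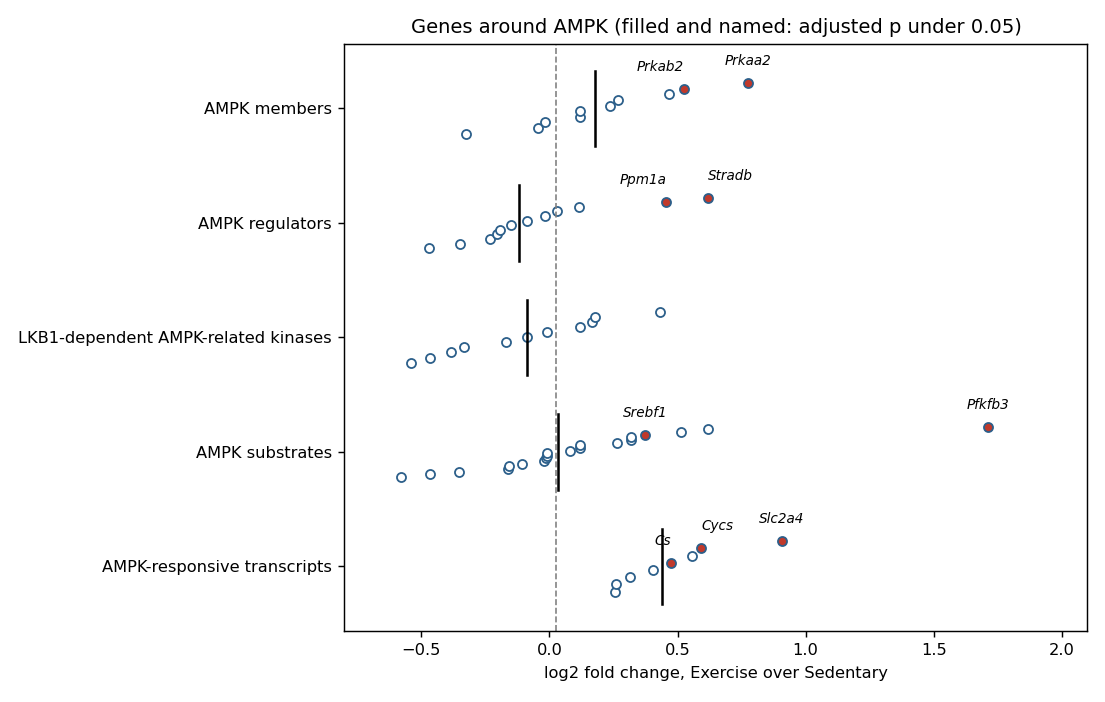
Log2 fold change of exercise over sedentary (horizontal axis) for each gene tested in the 10 AMPK genes and the 4 lists around them (rows), filled and named where the adjusted p was under 0.05, with black bars for the median of a row and a dashed line for that of all genes, 0.03. All 8 responsive transcripts lie right of 0, while the regulators and the LKB1-dependent kinases have medians of -0.12 and -0.09.

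The 10 genes were also placed by their pattern over the 6 mice, as the root mean square difference of centred log2 values. Prkaa1 and Prkaa2 were the pair furthest apart, at 0.639, and Stk11 and Cab39 the closest, at 0.0934. The values were not scaled to a gene's own range, so genes that varied little lie close together. Cab39 spanned only 0.256, and stood at 0.104 from Prkag1 and 0.106 from Prkag2. Prkab2 and Prkag3 stood at 0.109 from each other, and both shared the dip at Exercise 2. Among the other 15748 named genes, Ifngr2 (0.0289) and Fbrsl1 (0.0296) ran closest to Prkaa2, and Abca17 (0.0420) and Drc7 (0.0468) closest to Prkab2. For Prkag3 they were Fbxw21 (0.0619) and Efna3 (0.0719), and for Prkaa1 Tex9 (0.0314) and Mysm1 (0.0320). Degs2 (0.0154) and Kat14 (0.0189) were closest to Prkag1, Sgcb (0.0133) and Prr14 (0.0148) to Prkag2, and Klhl29 (0.0313) and Wdr45b (0.0431) to Prkab1. Rmdn1 (0.0270) and Ywhag (0.0284) were closest to Stk11, Bmp1 (0.0513) and Tnxb (0.0531) to Camkk2, and Prrx1 (0.0193) and Zfp661 (0.0224) to Cab39. These distances over 6 mice are descriptions.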

How the data were processed

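RNA was labelled with a single dye and hybridised to Agilent mouse arrays, and the authors' Feature Extraction 12.1.0.3 software wrote the deposited scanner files. Their values are spot intensities on a linear scale, corrected for background by that software. The authors also deposited a table of intensities, which were the same signals multiplied by 1 factor per array. Samples were grouped by the labels, and each array is a separate mouse.

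Here, log2 of the processed signal minus the 75th percentile of the array was taken without control spots and flagged outliers. Spots of 1 probe were averaged. Of 56605 probes, 22 with a missing value were dropped, and the 32726 whose signal was well above background on 3 or more of the 6 arrays were kept. The files carry transcript identifiers, so 34577 probes were named through RefSeq (GRCm38.p6), used for names and promoter windows only. Of the 25005 genes tested, 15749 had such a name. The brightest probe stood for a gene. Background correction affects dim probes most, and the number of arrays limits the precision. The exercise and sedentary groups were compared in R 4.3.3 with limma 3.58.1, two-sided, with eBayes and p-values adjusted by Benjamini-Hochberg across the 25005 genes. Ratios within arrays used the exact permutation test. Scripts were tested on simulated data.

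The 10 members and all lists were chosen with earlier results of these data known. The genes named are the members, the called genes of each list (at most 3 in each direction), and the 2 nearest neighbours of each member. Besides these, 3 sestrin genes, Brsk1 and the markers Myh4 and Ttn were named after their values were seen. Alternatives were quantile, median, spike-in and no scaling, normexp with an offset of 50, other filters and probe rules, the deposited table, blocks, array weights, trend and robust eBayes, and each array left out. Testing all probes singly and the comparison within 1 strip were added after the data were seen. Protein sequences were not used here.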

Additional observations from a re-analysis of the deposited data

How the results depend on the processing

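Prkaa2 was higher and Prkaa1 lower under all 22 alternatives (0.23 to 0.96 and -0.88 to -0.09), and Prkab2 was higher under 21. Several of these cannot alter the difference: the other filters, the replicate block, trend and robust eBayes and the probes tested singly leave it as reported, and the strip as a block equals the comparison within the strip. The adjusted p was under 0.05 in 10 of the 22 for Prkaa2 and in 10 for Prkab2. Apart from shifts that move every gene alike, given below, the cause of the differences between settings was not tested.

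AMPK genes called higher numbered 0 (2 as reported) with quantile normalisation, no scaling, spike-in scaling, the deposited table, the replicate block, the strip as a block and within the strip, and 4 with array weights and with trend and robust eBayes. Those called lower (0 as reported) numbered 3 without scaling, 2 with spike-in scaling and 1 with array weights. Over all genes, calls higher (2867 as reported) were 1865 with quantile normalisation, 617 without scaling, 354 with spike-in scaling, 6134 with normexp, 9737 with all probes and no filter, 1172 in the deposited table, 5117 with array weights, and 0 with either block and within the strip. Calls lower (1539 as reported) were 872 with the array median, 11280 without scaling, 11440 with spike-in scaling, 3201 in the deposited table, 3639 with array weights, 3 with the strip as a block, and 0 with the replicate block and within the strip. With unadjusted p under 0.05 there were 8582 genes with the replicate block, 4828 with the strip as a block and 4062 within the strip (limma), where Sedentary 1 is the only sedentary array and is assumed to vary like the exercise arrays. Called genes of the 4 lists (7 as reported) were 4 with quantile normalisation, 28 without scaling, 27 with spike-in scaling, 15 with normexp, 21 with array weights, 13 with trend and robust eBayes, and 0 with either block and within the strip. Leaving out each array in turn gave 0 to 2 AMPK genes higher, 0 to 1 lower, 0 to 3468 genes higher, 0 to 2063 lower and 0 to 9 list genes, with 6680 to 9599 genes at an unadjusted p under 0.05 (limma).

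Directions reversed as follows. No scaling, spike-in scaling, the array median and the deposited table each move every gene by the same amount. Their reversals follow from that shift, and differences relative to the median gene stay as reported. Without scaling, Prkag1 was at -0.24, Prkag3 at -0.0064, Stk11 at -0.20, Camkk2 at -0.35 and Cab39 at -0.35. With spike-in scaling, Prkab2 was at -0.0252, Prkag1 at -0.31, Prkag3 at -0.0824, Stk11 at -0.28, Camkk2 at -0.43 and Cab39 at -0.43. Cab39 was at -0.0937 with quantile normalisation and -0.0395 in the deposited table, and Camkk2 at -0.037 there. With the array median Prkab1 was at 0.0712 and Prkag2 at 0.0435. With the mean of the probes Prkab1 was at 0.0083. Prkab1 was at 0.14 and Camkk2 at -0.18 with the strip as a block and within the strip. The ratio of Camkk2 to Stk11 was 0.0902 with the probe of largest SD. Leaving out arrays gave -0.14 to 0.0616 for Prkab1, -0.0236 to 0.27 for Camkk2 and -0.335 to 0.0062 for that ratio.

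Same-numbered mice did not deviate together (correlations 0.015, 0.085 and 0.036), so the numbers were not taken as pairs. With the replicate block, which cannot alter a difference in this balanced design, Prkaa2 and Prkab2 were not called.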
